A study of Homo sapiens with 4 samples.

Results

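The 5 genes of the proteasome activators and an inhibitor, which act on the proteasome core, were followed as RNA, not protein, in A549 cells with a PSME4 knockdown. They are the activators PSME1, PSME2, PSME3 and PSME4 and the inhibitor PSMF1, chosen by symbol, and all 5 had a row among the 15037 genes of the deposited count table. A549 is an established human lung carcinoma epithelial line grown in DMEM, and poly(A) RNA was sequenced from 2 libraries in which PSME4 was knocked down (labelled here PSME4 KD). The 2 control KD libraries came from A549 cells with a knockdown aimed at RFP (RFP KD), a fluorescent protein that human cells lack. The labels give 1 cell line and neither the knockdown reagent, nor the number of constructs, nor the time of harvest. Whether replicate libraries were grown as separate cultures is not stated either, so the spread among the 4 libraries may be technical. A p-value of edgeR rests on that spread of a gene moderated by the spread of the other tested genes.

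The proteasome core is a barrel whose proteolytic sites face an inner chamber, with gates at both ends that caps must open. The regulatory particle does this with ATP and unfolds ubiquitinated proteins, whereas the activators studied here bind the same ends without ATP and favour peptides or loosely folded proteins. PSME1 and PSME2 together form an interferon-inducible ring known for its part in producing class I peptides, PSME3 forms a related ring in the nucleus, and PSME4 is a single large dome-shaped chain. PSMF1 was described as an inhibitor of the core in the test tube and has also been linked to proteasome transport and assembly.

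Library totals ran from 11766371 counts in control KD 1 to 15208588 in PSME4 KD 1, and the 5 genes together held 10178 to 13913 counts per library. Of 6 epithelial markers all had a row, and their summed level was 3701 and 4583 CPM (counts per 1e6 counts of the library, TMM scaled) in the control KD libraries and 4006 and 5160 CPM in the PSME4 KD libraries, none past the test. Of 6 leukocyte markers 3 had a row, with PTPRC and CD3E among those without one in the genes analysed here, and the 3 summed to 29.1 and 33.8 CPM in control KD against 39.3 and 39.4 CPM in PSME4 KD. None of the 4 endothelial markers had a row. Of 5 fibroblast markers 3 had a row, summing to 17.2 and 21.2 CPM in control KD against 26.4 and 28.6 CPM in PSME4 KD. Among them COL1A1 rose (log2 0.73) and PDGFRA fell (−1.34), neither after the GC correction applied to PSME4. PDGFRA rested on 60 counts summed over control KD and 31 over PSME4 KD. The labels give 1 cell line, so these markers are read as transcripts of the A549 cultures and not as shares of other cell types. Whether any other cell type was present was not tested. In these bulk samples fewer cells that express a gene and less of its RNA per cell cannot be told apart.

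PSME4, at chr2:53864069-53970993 (GRCh38), was the 1 gene of the 5 that passed the test. Its level was 158 CPM in control KD 1 and 180 CPM in control KD 2, against 75.3 CPM in PSME4 KD 1 and 85.1 CPM in PSME4 KD 2. Both PSME4 KD libraries lay below both control KD libraries. About 47.5% of the control level remained, with a 95% interval of 0.359 to 0.627 for the fold change (log2 fold change −1.08, SE 0.20, adjusted p = 0.000855, quasi-likelihood test of edgeR, Benjamini-Hochberg adjustment over the 13497 genes tested). The call on 1 of 5 genes stands beside 10.6% of all tested genes called in either direction, 6.0% called lower and 4.56% called higher. Of the 810 genes called lower, 238 fell more than PSME4, the gene that the knockdown was aimed at, and by p-value it ranked 106 among all tested genes.

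The PSME4 call was lost when control KD 1, control KD 2 or PSME4 KD 1 was dropped, while its log2 value stayed between −1.17 and −0.97 and the calls over all genes fell from 1426 to between 43 and 281. Without control KD 1 the adjusted p was 0.0522, without control KD 2 it was 0.0599 and without PSME4 KD 1 it was 0.146, while without PSME4 KD 2 it remained at 0.0145 (edgeR). The longest PSME4 transcript has a GC content of 41.5%, at percentile 23.7 of the tested genes. After each library was corrected for GC content, PSME4 stood at −0.90 (SE 0.17, adjusted p = 0.00246, edgeR), where 9.30% of all genes were called. With that correction the call held without any 1 library, at adjusted p = 0.00684 and 0.00880 without control KD 1 and 2 and 0.0296 and 0.00512 without PSME4 KD 1 and 2 (edgeR). This pairing of settings was chosen after seeing the data. In the authors' deposited table PSME4 had a log2 fold change of 1.07 for control over knockdown, with an adjusted p of 1.23e-05 and a further adjusted p of 0.0203. The authors' deposited table also holds regularised log values, in which the difference between the group means of PSME4 was only −0.56, since that transformation shrinks differences between libraries.

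**Figure D1:**
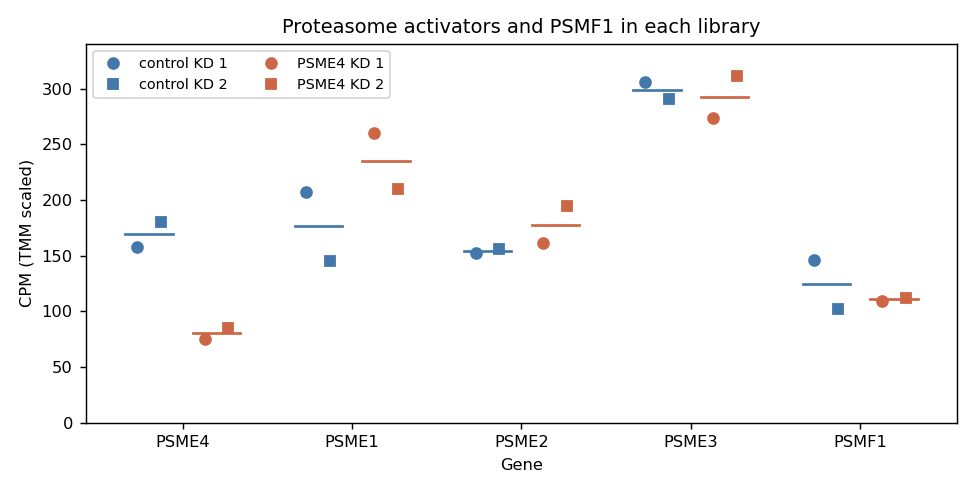
Level of each gene in CPM (TMM scaled, vertical axis) in the 4 libraries. Circles and squares are replicates 1 and 2, blue is control KD, orange is PSME4 KD and bars are group means. PSME4 lies at 75.3 and 85.1 CPM in PSME4 KD against 158 and 180 CPM in control KD, and levels should be compared within a gene, because longer transcripts give more counts.

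The 2 subunits of the interferon-inducible ring are encoded close together with EMC9 between them, PSME1 at chr14:24136194-24138962 and PSME2 at chr14:24143365-24146610 (GRCh38). Both are known to respond to interferon-gamma. The bases before their start sites are therefore shown, beside those of the related PSME3. RefSeq sequences on GRCh38.p14 are given 5′ to 3′ on the strand of the gene, as the 250 bases before the start, with capitals marking the letters GGGCGG (a GC box) and GAAA, any 2 bases, GAAA (the core of an interferon-response element) on either strand.
PSME1 (chr14:24135944-24136193, plus strand): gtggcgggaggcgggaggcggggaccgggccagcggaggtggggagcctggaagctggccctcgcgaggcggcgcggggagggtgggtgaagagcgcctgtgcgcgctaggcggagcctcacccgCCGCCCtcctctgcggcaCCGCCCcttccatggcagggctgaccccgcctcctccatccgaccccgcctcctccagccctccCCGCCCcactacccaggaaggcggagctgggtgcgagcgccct
PSME2 (chr14:24146611-24146860, minus strand): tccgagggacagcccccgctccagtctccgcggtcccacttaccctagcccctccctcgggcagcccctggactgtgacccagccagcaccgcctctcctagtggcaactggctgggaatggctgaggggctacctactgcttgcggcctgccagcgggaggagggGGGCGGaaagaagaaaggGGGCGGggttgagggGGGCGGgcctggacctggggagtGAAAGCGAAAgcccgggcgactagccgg
PSME3 (chr17:42833147-42833396, plus strand): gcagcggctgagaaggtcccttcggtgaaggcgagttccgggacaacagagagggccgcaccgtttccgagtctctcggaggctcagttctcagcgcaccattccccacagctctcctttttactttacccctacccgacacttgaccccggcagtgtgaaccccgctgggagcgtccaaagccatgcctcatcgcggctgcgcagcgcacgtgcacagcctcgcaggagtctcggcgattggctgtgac

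The interferon-response letters of PSME1 lie just after its start, so they are shown in windows of 30 bases for both genes, again with the motif in capitals.
PSME1 (chr14:24136189-24136218, plus strand): gccctaccgcTTTCGCTTTCccttcgcggt
PSME2 (chr14:24146619-24146648, minus strand): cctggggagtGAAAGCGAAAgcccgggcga

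Read on its minus strand, the PSME1 match has the same 10 letters as the PSME2 match, GAAAGCGAAA, at bases 6 to 15 after the start in PSME1 and 28 to 19 before it in PSME2. The interferon-response letters occurred on either strand in 3.57% of 34943 RefSeq windows of 300 bases (250 before to 50 after a start), and in none of the windows of PSME3, PSME4 and PSMF1. GGGCGG occurred 3 times each in PSME1 and PSME2, 4 times in PSME4, where 3 adjoining copies each share a base with the next, 2 times in PSMF1 and not in PSME3, against 44.9% of all windows with at least 1 copy. The letters CCGGAAGT, bound by ETS factors, occurred in PSME4 and PSMF1 and in 4.11% of all windows. The letters TGAC, any 3 bases, GC (antioxidant-response) were searched too. They occurred 1 time each in PSME1, PSME2 and PSME4, and in 13.3% of all windows. A match is a description of the sequence and says nothing of binding in these cells.

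PSME1 was at 207 CPM in control KD 1 and 146 CPM in control KD 2, while PSME4 KD 1 gave 260 CPM and PSME4 KD 2 gave 210 CPM. The groups did not overlap, but the lowest knockdown library lay only just above the highest control library, and control KD 1 and 2 differed by 0.51 on the log2 scale. The fold change of 1.33 had a 95% interval of 0.997 to 1.78 and did not pass (log2 0.42, SE 0.21, adjusted p = 0.197, edgeR). Its size rested on single libraries: leaving out control KD 1 or 2 gave log2 values of 0.69 or 0.19, leaving out PSME4 KD 1 or 2 gave 0.25 or 0.59, and the GC correction gave 0.28.

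PSME2 was at 152 and 156 CPM in control KD 1 and 2, while PSME4 KD 1 and 2 gave 161 and 195 CPM. The groups again did not overlap, with PSME4 KD 1 close to the control libraries. The fold change of 1.15 had a 95% interval of 0.876 to 1.51 and did not pass (log2 0.20, SE 0.19, adjusted p = 0.536, edgeR). It was 0.09 on the log2 scale after the GC correction, 0.09 without PSME4 KD 2 and 0.34 without PSME4 KD 1. Groups that do not overlap were found for 3 of the 5 genes, beside 55.0% of all tested genes, 28.4% with lower and 26.7% with higher PSME4 KD libraries. PSME2 counts are uncertain in one respect, because its transcript matches copies elsewhere in GENCODE 29 at up to 96.2% identity over 720 bases. The best-matching copies had no row under their GENCODE names among the genes analysed here, and rows under other names were not searched. How reads shared with them were counted is not stated. PSME1 and PSME2 matched each other at 70.1% identity over 231 bases.

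As subunits of 1 ring, PSME1 and PSME2 were also compared within each library, where no scaling between libraries is needed. The ratio of PSME1 to PSME2 counts was 1.36 and 0.931 in control KD 1 and 2, and 1.62 and 1.08 in PSME4 KD 1 and 2. The ranges overlapped, and the difference between the groups (0.23 on the log2 scale) was smaller than the SD within either group (0.39 and 0.41, n = 2 each, exact permutation test, two-sided, p = 0.667, with 0.333 the smallest p that the 6 splits allow).

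PSME3, the nuclear ring, lies at chr17:42833397-42843760 (GRCh38). Control KD 1 and 2 held 306 and 291 CPM of PSME3, and PSME4 KD 1 and 2 held 273 and 311 CPM. The PSME4 KD libraries lay on both sides of the control libraries. The fold change of 0.978 had a 95% interval of 0.746 to 1.28 (log2 −0.03, SE 0.19, adjusted p = 0.941, edgeR), and its sign changed with library size as the only scaling (0.01).

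PSMF1, the inhibitor, lies at chr20:1113263-1172246 (GRCh38). Its level was 146 and 102 CPM in control KD 1 and 2, against 109 and 112 CPM after the PSME4 knockdown (replicates 1 and 2). Both PSME4 KD libraries fell inside the range of the control libraries, which differed by 0.52 on the log2 scale. The fold change of 0.891 had a 95% interval of 0.668 to 1.19 (log2 −0.17, SE 0.20, adjusted p = 0.649, edgeR). The log2 value was 0.12 without control KD 1 and −0.40 without control KD 2, so its direction rested on which control library was used. PSMF1 overlaps LOC105372493, a gene of 1.86 CPM on average in control KD, and the labels do not say how reads lying on both were counted.

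Across PSME1, PSME2, PSME3 and PSMF1 the upper bounds of the 95% intervals ran from 1.19-fold to 1.78-fold and the lower bounds from 0.668-fold to 0.997-fold. A change of 2-fold in either direction lay outside the interval of each of the 4 genes, while changes within the intervals cannot be told from none. Most of the spread behind these intervals is borrowed from other genes, and the spread between replicates may be technical. The intervals therefore do not exclude a 2-fold change. Counting error was at most 2.95% for any of the 5 genes in any library, below the spread between libraries of PSME1 and PSMF1. In the authors' deposited table none of the 4 passed either, with adjusted p-values of 0.286 for PSME1, 0.617 for PSME2, 0.969 for PSME3 and 0.776 for PSMF1.

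**Figure D2:**
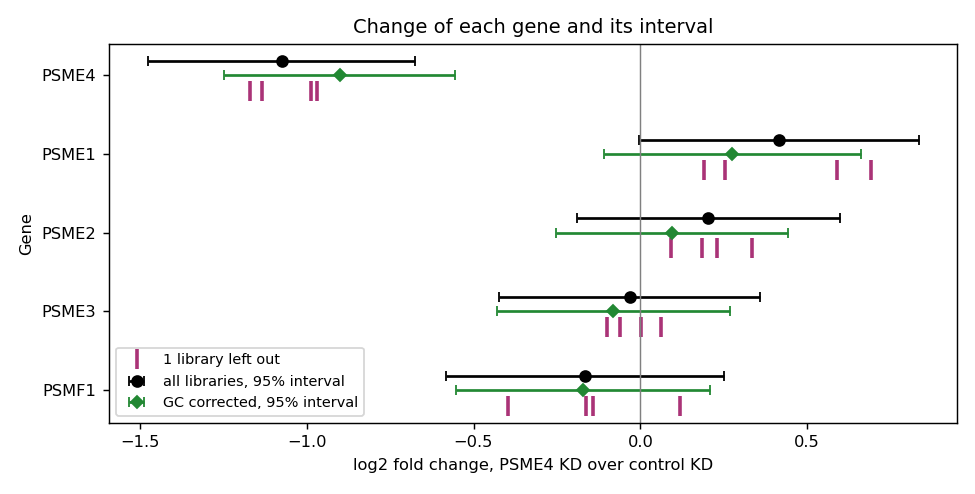
Log2 fold change of each gene, PSME4 KD over control KD (horizontal axis). Black circles are the edgeR fit to all 4 libraries and green diamonds the fit after GC correction, both with 95% intervals, and purple ticks are fits with 1 library left out. PSME4 stays between −1.17 and −0.97 in the fits with 1 library left out, while the intervals of the other 4 genes include 0.

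Within a library, PSME4 fell against each of the other genes. Its counts were 0.515 and 0.619 of those of PSME3 in control KD 1 and 2, and 0.276 and 0.274 in PSME4 KD 1 and 2. The PSME4 to PSME3 ratio dropped 2.06-fold, and its log2 values had an SD of 0.19 in control KD against 0.0082 after knockdown (n = 2 each, exact permutation test, two-sided, p = 0.333, the smallest these 6 splits allow). Against PSME1 the ratio went from 0.762 and 1.24 to 0.289 and 0.406. Against PSME2 it went from 1.04 and 1.15 to 0.468 and 0.437, and against PSMF1 from 1.08 and 1.77 to 0.691 and 0.758. The groups did not overlap in any of these 4 ratios. All 4 have PSME4 counts as the numerator, so they restate its fall and are not separate results. The CPM values of PSME4 itself did not overlap either, as for 55.0% of all tested genes. The PSME4 share given below uses the same counts.

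Levels of different genes were set beside each other only per kilobase of transcript, using the longest transcript of the CCDS set in GENCODE 29. On that scale, in CPM per kb, the control KD libraries held PSME1 at 182 and 128, PSME2 at 109 and 111, PSME3 at 97.4 and 92.6, PSMF1 at 34.1 and 23.8 and PSME4 at 22.2 and 25.4. PSME4 and PSMF1 overlapped at the low end in control KD, and the 3 ring subunits stood well above both. In PSME4 KD the order was the same, with PSME4 at 10.6 and 12.0 and PSMF1 at 25.4 and 26.2 CPM per kb. PSME4 had the lowest group mean of the 5 in either group whichever length was used. In control KD 2 alone, PSMF1 (23.8) lay below PSME4 (25.4) per kb of the CCDS transcript. The order of PSME1, PSME2 and PSME3 was not settled, since per kilobase of coding length PSME3 came first in both groups.

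Expressed as a share of the 4 activators (CPM per kb), PSME4 was 5.42% and 7.11% in control KD 1 and 2, and 2.40% and 2.76% in PSME4 KD 1 and 2. The groups did not overlap, and the mean share was 6.26% ± 1.19 (SD, n = 2) against 2.58% ± 0.252 (exact permutation test, two-sided, p = 0.333, the smallest possible). By coding length the shares were 3.60% and 1.54%, so the drop was seen with either length and its size in percentage points was not fixed. The share of PSME1 overlapped between the groups, at 44.4% and 35.8% in control KD and 51.9% and 42.5% in PSME4 KD.

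**Figure D3:**
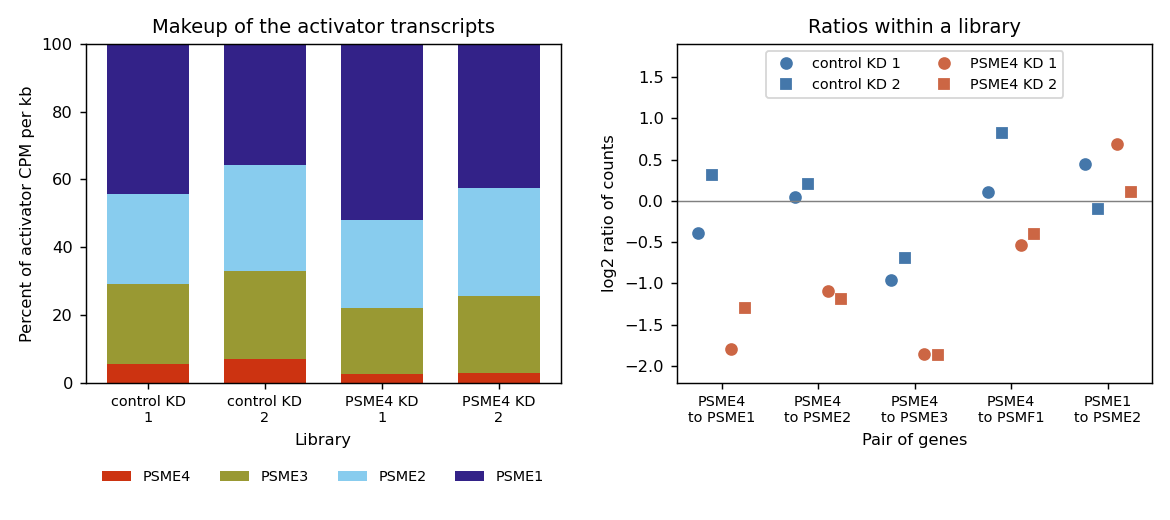
Left, percent of the summed CPM per kb of the 4 activators taken by each gene (bars, 1 per library). Right, log2 ratio of counts for pairs of genes within each library, with blue for control KD, orange for PSME4 KD, circles for replicate 1 and squares for replicate 2. The PSME4 share is 5.42% and 7.11% in control KD and 2.40% and 2.76% in PSME4 KD, and the PSME1 to PSME2 ratio overlaps between the groups.

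Signalling from interferon-gamma to PSME1 and PSME2 was described with 9 genes, among them 2 receptor chains, the kinases JAK1 and JAK2, the transcription factors IRF1 and IRF9 and the class I transactivator NLRC5. None of the 9 passed by edgeR, 2 had an unadjusted p under 0.05, beside 26.2% of all tested genes, and none passed by limma voom or DESeq2, where NLRC5 had no adjusted p. Their median log2 value was 0.11, against −0.0021 over all genes tested, and it turned to −0.09 after the GC correction, against 0.01 over all genes. JAK2, a receptor-bound kinase, was at 28.1 and 31.5 CPM in control KD and 19.2 and 18.8 CPM in PSME4 KD (log2 −0.65, SE 0.22, adjusted p = 0.0562, edgeR). IRF1, a transcription factor that binds interferon-response elements, was at 7.87 and 5.16 CPM against 9.52 and 10.2 CPM (log2 0.60, SE 0.28, adjusted p = 0.172, edgeR), with 0.93 and 0.33 when control KD 1 or 2 was left out. These 2 genes lay apart in opposite directions, and neither passed.

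Of the 14 tested subunits of the core particle that the activators cap, 10 did not pass. Of 7 tested subunits of the outer alpha rings, to which the activators dock, 3 fell and none rose: PSMA4 (−0.80, SE 0.20), PSMA3 (−0.66, SE 0.20) and PSMA2 (−0.65, SE 0.19). Of 7 subunits of the inner beta rings, 1 rose, PSMB3 (0.66, SE 0.20), and none fell. The medians were −0.36 for the alpha and 0.27 for the beta subunits, a difference that was not tested. After the GC correction they were −0.20 and 0.25, and PSMA4 alone of the 4 called subunits stayed called. The interferon-inducible beta subunits PSMB8, PSMB9 and PSMB10, which join the core under the same stimulus as PSME1 and PSME2, did not pass (0 of 3, none with an unadjusted p under 0.05 by edgeR or an adjusted p under the threshold by DESeq2 or limma voom). PSMB8 was at 8.57 and 8.60 CPM in control KD and 13.3 and 11.3 CPM in PSME4 KD.

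Among 19 tested subunits of the regulatory particle, the cap that competes for the same ends of the core, 2 rose and 3 fell, with a median of −0.12. PSMD8, a subunit of its lid, was at 234 and 220 CPM in control KD and 476 and 414 CPM in PSME4 KD (log2 0.97, SE 0.19), and PSMD3, another lid subunit, rose by 0.65 (SE 0.19). PSMD1 (−0.89, SE 0.21), PSMC1 (−0.66, SE 0.21) and PSMD12 (−0.62, SE 0.20) fell. PSMD12 did not pass by DESeq2 (adjusted p = 0.0565), in edgeR with library size as the only scaling (0.0511) or after the GC correction, which gave −0.36 (0.195). Of 9 assembly chaperones 2 fell, POMP (−1.05, SE 0.20), needed for maturation of the core, and PSMG1 (−0.65, SE 0.21), which helps to form the alpha ring. PSMG1 did not pass by DESeq2 (adjusted p = 0.0634) or in edgeR with library size as the only scaling (0.0504).

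Factors that bind the proteasome or its caps included 9 genes, of which UCHL5, a deubiquitinase of the regulatory particle, fell (−0.68, SE 0.22, adjusted p = 0.0410, edgeR) and none rose. This is 11.1% of that list, beside 10.6% of all tested genes called. UCHL5 did not pass by DESeq2 (adjusted p = 0.0634) or after the GC correction, which gave −0.36 (adjusted p = 0.224, edgeR). PSME3IP1, a nuclear partner of PSME3, was at 72.5 and 63.4 CPM in control KD and 78.2 and 82.0 CPM in PSME4 KD (log2 0.24, SE 0.20). FBXO7, a partner of PSMF1, was at 157 and 151 CPM against 141 and 178 CPM (log2 0.05, SE 0.19), with −0.10 without PSME4 KD 2 and 0.30 after the GC correction. Both partner genes were singled out for their binding partner after the values were seen. The deubiquitinase USP14 was at −0.46 (SE 0.21), the redox protein TXNL1 at −0.52 (SE 0.20) and ECPAS, a scaffold of the proteasome, at 0.34 (SE 0.20), and none of these passed. The GC correction gave −0.20 for USP14 and −0.28 for TXNL1. Leaving out PSME4 KD 1 or 2 gave −0.74 or −0.19 for USP14 and, without PSME4 KD 2, −0.28 for TXNL1. ECPAS was at 0.20 without control KD 1. Of 4 genes that control transcription of proteasome genes none passed by edgeR, DESeq2 or limma voom. NFE2L2, a stress-responsive factor, had an unadjusted p of 0.0191 by edgeR and was at 194 and 297 CPM in control KD and 358 and 343 CPM in PSME4 KD (log2 0.51, SE 0.21, adjusted p = 0.109), with 0.23 and 0.86 when control KD 1 or 2 was left out.

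Over the 8 lists, 3 of 67 tested genes rose and 9 fell, which is 17.9% beside 10.6% of all tested genes. After the GC correction 1 was higher and 7 lower, 6 of the 12 being the same genes in the same direction (PSMA4, PSMC1, PSMD1, PSMD8, POMP and PSMG1), beside 9.30% of all genes. The correction also added calls of the chaperone PSMG4 (−0.78, adjusted p = 0.0205, edgeR) and the proteasome-bound factor AKIRIN2 (−0.61, adjusted p = 0.0375, edgeR). Before it they were at −0.65 and −0.45 and did not pass. Of the 12, 7 overlap another RefSeq gene (PSMA2, PSMA3, PSMB3, PSMC1, PSMD1, PSMD3 and UCHL5), as do other genes named above such as PSMB8, USP14 and JAK2, and how such reads were assigned is not stated, which leaves these counts uncertain. DESeq2 kept 9 of the 12 calls, and library size as the only scaling kept 10. None of the 12 called genes stayed called without control KD 1 or without PSME4 KD 1, PSMD1 alone did without control KD 2, and PSMD8 alone did without PSME4 KD 2. PSMD1 was at −0.57 without control KD 1, PSMD12 at −0.39 without PSME4 KD 2, and UCHL5 at −1.03 and −0.38 without PSME4 KD 1 and 2.

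**Figure D4:**
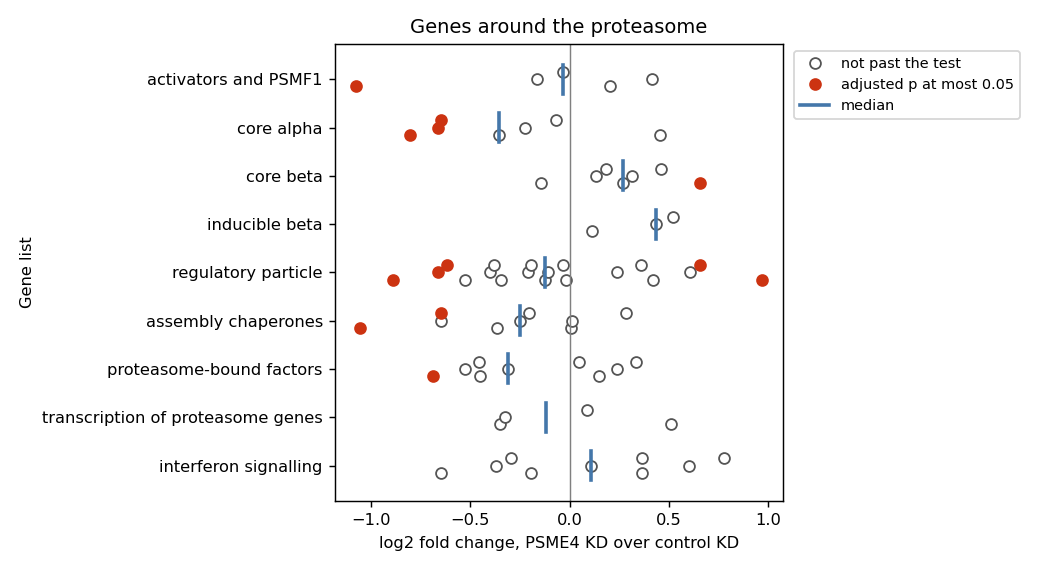
Log2 fold change, PSME4 KD over control KD (horizontal axis), of the activators with PSMF1 and of 8 lists of genes around the proteasome. Each circle is a gene, filled where the adjusted p was at most 0.05 by edgeR, and blue bars are medians. PSME4 is the single filled circle among the activators, and the alpha and beta subunits of the core have medians of −0.36 and 0.27. After the GC correction, which is not drawn, these medians were −0.20 and 0.25.

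The chromosomal neighbours of the 5 genes were read as a check on position, taking the nearest 2 tested genes on each side. Of 17 neighbours that are no member, 3 passed the test, and 10 had a log2 value above 0, beside 10.6% and 49.8% of all tested genes. The genes next to PSME4 on chromosome 2 did not pass: GPR75 was at −0.10 (SE 0.47) and ACYP2, whose annotated start lies 0.12 kb from PSME4, at 0.30 (SE 0.24). On chromosome 14 the 7 tested genes from PCK2 to IRF9, PSME1 and PSME2 among them, all had log2 values above 0, 6 of them after the GC correction, and 2 passed. These were DCAF11 (0.82, SE 0.22, adjusted p = 0.0184, edgeR), a ubiquitin ligase receptor, and RNF31 (0.93, SE 0.30, adjusted p = 0.0429, edgeR), the catalytic subunit of the linear ubiquitin ligase. RNF31 was at 0.71 after the GC correction and did not pass, and of the 3 called neighbours DESeq2 kept DCAF11 only. The third was SLC52A3, a riboflavin transporter upstream of PSMF1, which fell from 0.906 to 0.164 CPM on average. Leaving out any 1 library ended all 3 calls (edgeR), while the log2 values stayed between 0.69 and 0.96 for DCAF11, 0.69 and 1.23 for RNF31 and −2.70 and −2.12 for SLC52A3.

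The genes whose profile over the 4 libraries lay nearest to that of PSME4 were CFAP44, ARHGAP29, PDGFC, DKK1 and TBC1D31, out of 10308 tested genes with at least 5 CPM on average. The distance, taken between log2 CPM values centred on each gene's mean, was 0.12 for CFAP44 and for ARHGAP29, 0.15 for PDGFC, 0.16 for DKK1 and 0.17 for TBC1D31. DKK1, a secreted antagonist of Wnt signalling, stood at 1459 and 1907 CPM in control KD 1 and 2, against 791 and 894 CPM after the PSME4 knockdown. ARHGAP29 was at 123 and 143 CPM against 57.0 and 60.4 CPM. Over 4 libraries in 2 groups such a likeness mostly restates the difference between the groups, and these genes were chosen for it, so no test is given.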

How the data were processed

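Libraries of A549 poly(A) RNA were prepared by a Lexogen SENSE kit, per the labels' protocols. The build hg38 and the tools cutadapt, STAR and DESeq2 are named in the processing notes of the submitters. Tool versions, read counter, strand setting and gene annotation remain unnamed (not given in the sources used here). Whole-number counts per gene in the deposited table were used for all tests, and each of its rows reaches at least 6 counts in 1 library. Per the file headers it also holds a signal (counts divided by 1 size factor per library), regularised values on a log2 scale, and the authors' own log2 fold change, p-value and adjusted p-values.

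Groups and replicate numbers came from the sample titles. The main test was the quasi-likelihood F test of edgeR 4.0.16 (R 4.3.3) on the 13497 genes that filterByExpr kept, with TMM scaling, a group term and no covariate, which leaves 2 residual degrees of freedom. The Benjamini-Hochberg adjusted p had a threshold of 0.05. The SE was derived from the log2 fold change and F, and 95% intervals use edgeR's total degrees of freedom. Their median was 28.9 against the 2 residual ones, because edgeR moderates the spread of a gene with that of the others. Most of the spread behind an SE, interval or p-value is thus borrowed from other genes. Replicates differed beyond sampling noise (chi-square per degree of freedom 23.9 in control KD, 19.1 in PSME4 KD), so each counted as 1 replicate. No batch is given in the labels.

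Ratios and shares were tested by exact permutation over libraries. Transcript lengths, GC content and transcript matches (blastn) came from GENCODE 29, positions and promoter windows from RefSeq on GRCh38.p14, the assembly of hg38. GC content was found for 96.1% of tested genes, and the correction subtracts a lowess trend (span 0.4) of each library as an offset. The length used for levels was chosen after seeing the lengths. Alternatives were DESeq2's size factors, library size alone, DESeq2 1.42.0, limma voom 3.58.1, other count filters, the replicate number as a block, the GC correction, each library left out and a threshold of 0.10. The members and lists were chosen with earlier results of these data known. Named genes are the 5 members, those with the smallest p-values of each list (up to 4, or 6 for proteasome-bound factors), their nearest neighbours and the 5 profiles nearest to PSME4. PSMD12, PSME3IP1 and FBXO7 lie outside the rule and were named after their values were seen, and not every gene of the rule or of the lists is reported here by name. On simulated data for this comparison (13354 genes run), 15 of 64 genes changed 1.5-fold, 44 of 69 changed 2-fold and 64 of 67 changed 4-fold were recovered, with 8 false calls.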

Additional observations from a re-analysis of the deposited data

How the results depend on the processing

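PSME4 kept its direction in every alternative run and its call in all but 3, which left out either control KD library or PSME4 KD 1. Leaving out 1 library gave log2 values of −1.17 to −0.97 for PSME4, 0.19 to 0.69 for PSME1, 0.09 to 0.34 for PSME2, −0.10 to 0.06 for PSME3 and −0.40 to 0.12 for PSMF1. PSME3 changed sign with library size as the only scaling (0.011), without control KD 1 (0.0032) and without PSME4 KD 1 (0.061), and PSMF1 without control KD 1 (0.12). None of PSME1, PSME2, PSME3 and PSMF1 passed in any alternative run. The PSME1 to PSME2 difference of 0.23 on the log2 scale went to −0.041 without control KD 2 and −0.061 without PSME4 KD 1, and leaving out 1 library took it from −0.061 to 0.52. The PSME4 share fell by 3.68 percentage points, and the share per kb of coding length fell by 2.06. With 1 library left out, edgeR called 43 to 281 genes in place of 1426, and 0 to 1 in place of 12 in the lists, where fewer libraries are tested. At an adjusted p of 0.10 it called 2240 genes. The replicate number as a block gave 1554 genes and −1.07 for PSME4 (adjusted p = 6.06e-05, edgeR), and changed no call of the 5 genes or the 12 list genes. Deviations of same-numbered libraries had a correlation of −0.043 over 8748 genes, and the libraries share only a number.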
